A study of Mus musculus with 4 samples.

Results

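The genes described here are 7 members of the gap junction gene families: the connexins Gjd2, Gja1, Gjb2, Gjb6 and Gjc3 and the pannexins Panx1 and Panx2. They were chosen by symbol, as every entry with one of these names, and they are 7 of 23991 symbols in the files. Each had 1 entry per library, and all 7 passed the filter on low values. Amygdala was taken from mice of genotype NpyCre/+;TRAPlox/lox, in which Cre made under the Npy gene acts on a lox allele that carries the tag for translating ribosome affinity purification (TRAP). The 2 groups, both of this genotype, were total input RNA and RNA immunoprecipitated (IP) on tagged ribosomes, with 2 libraries each and 3 mice pooled per library. Each IP had a corresponding input by the design text, so the 4 libraries are not 4 independent samples, and the main fit did not use this pairing. The labels give no age, sex or treatment for these pools. A cell in which Cre acted at any earlier time may keep the recombined allele, so the tagged cells need not express Npy at sampling, and no Cre-negative or mock precipitate was analysed here.

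Connexins are proteins of the cell membrane that assemble in rings, and rings of adjoining cells dock to form gap junctions, which pass ions and small molecules. In the brain the family is divided by cell type. Gjd2 encodes Cx36, the main connexin of electrical synapses between neurons, many of them between GABAergic interneurons. Gja1 (Cx43) and Gjb6 (Cx30) couple astrocytes, and Gjb2 (Cx26) is known from astrocytes and from the cells of the meninges. Gjc3 (Cx29) is made by oligodendrocytes and Schwann cells and lies in myelin, and Gjb1 (Cx32) is among the connexins that couple oligodendrocytes. Pannexins have a similar topology with no sequence relation to connexins, and they mostly form channels of a single membrane that release ATP.

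Setting IP against input addressed which of the 7 genes were enriched on tagged ribosomes. Gjd2 rose, at 3.55 times its input level, and Panx1 and Panx2 rose by less, at 1.73 and 1.28 times. Gja1, Gjb6, Gjb2 and Gjc3 fell, to between 12.7% and 15.2% of their input level. All 7 passed the test, 3 higher and 4 lower, but 70.9% of the 12417 genes tested also passed, 37.0% higher and 33.9% lower. The IP values of all 7 lay outside the range of the input values, which held for 86.4% of all genes tested (45.0% above and 41.4% below). The members are therefore set against other genes by the size of their change in log2(FPKM + 1), where the added 1 weighs more on low values. These ranks need not follow the ratios: Gjb2, at 12.7%, had the least of its input level left. For Gjd2, 153 genes had a larger rise, against 1290 for Panx1 and 3439 for Panx2. A lower change was seen in 38 genes for Gja1, 77 for Gjb6, 79 for Gjc3 and 188 for Gjb2.

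Libraries were of similar depth, at an estimated 13184676 to 16012763 reads each. Markers of ependyma and choroid plexus summed to 182 FPKM in input replicate 1 and 15.3 in input replicate 2. In IP, replicate 1 was also the higher, at 12.5 against 3.49 in replicate 2. Both differences came mostly through Ttr. No member was put on that list, and whether these differences between libraries bear on the members was not tested.

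The sequences before the start sites of Gjd2 and of 3 connexins that fell are shown because these genes moved in opposite directions while Gjb2 and Gjb6 are neighbours. Each is 250 bases that end at the base before the RefSeq start (GRCm38.p6, written 5′ to 3′ on the gene's strand). Of the 7 members, 6 had a window, and Panx2 was the one without. Capitals mark matches, on either strand, to the GC box GGGCGG, the AP-1 motif TGANTCA and the cyclic AMP response core TGACG, which did not overlap each other here. The windows are chr2:114013620-114013869 (minus strand) for Gjd2, chr10:56377050-56377299 (plus strand) for Gja1, chr14:57104703-57104952 (minus strand) for Gjb2 and chr14:57133612-57133861 (minus strand) for Gjb6.
Gjd2: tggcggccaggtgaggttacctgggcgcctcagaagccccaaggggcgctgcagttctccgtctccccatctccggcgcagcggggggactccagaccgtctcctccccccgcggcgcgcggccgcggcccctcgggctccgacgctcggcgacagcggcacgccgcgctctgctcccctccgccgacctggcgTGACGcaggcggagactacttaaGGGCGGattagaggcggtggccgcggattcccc
Gja1: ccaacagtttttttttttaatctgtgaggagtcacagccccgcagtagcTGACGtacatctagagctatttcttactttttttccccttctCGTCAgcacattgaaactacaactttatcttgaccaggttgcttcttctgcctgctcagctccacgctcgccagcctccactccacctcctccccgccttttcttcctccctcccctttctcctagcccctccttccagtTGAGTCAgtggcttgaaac
Gjb2: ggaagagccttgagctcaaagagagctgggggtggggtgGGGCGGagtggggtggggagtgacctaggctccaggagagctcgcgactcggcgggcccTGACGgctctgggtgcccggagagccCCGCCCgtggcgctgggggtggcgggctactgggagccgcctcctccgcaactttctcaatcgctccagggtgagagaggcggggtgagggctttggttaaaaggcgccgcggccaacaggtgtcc
Gjb6: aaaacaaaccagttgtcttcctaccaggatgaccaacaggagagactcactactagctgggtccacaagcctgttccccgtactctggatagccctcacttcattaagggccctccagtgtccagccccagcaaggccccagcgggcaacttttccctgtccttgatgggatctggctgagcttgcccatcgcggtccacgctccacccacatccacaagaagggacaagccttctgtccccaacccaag

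The windows of the connexins that fell had no common make-up. The Gjd2 window was 74.0% G and C, above 95.1% of 32851 such windows, and held 33 CG dinucleotides. The medians over all windows were 52.4% and 6 CG. The Gjb2 window was also rich, at 69.2% with 18 CG, while Gjb6 had 56.8% with 5 and Gja1, nearer the median, had 6. Gjc3 had 48.8% with 3 and Panx1 59.6% with 17. The GC box occurred once before Gjd2 and at 2 places before Gjb2, and 32.7% of all windows held it. Gja1 alone among the 6 held the AP-1 motif, 19 bases before the start counted to the motif's first base, and 6.75% of all windows held it. The core TGACG was found before Gjd2, Gja1, Gjb2 and Panx1, and in 17.8% of windows. TATAAA and the Sox motif ACAAAG, in 12.4% and 16.5% of windows, matched in none of the 6. These matches describe letters and are not evidence of a bound factor.

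Gjd2, the neuronal connexin, was at 1.51 and 1.62 FPKM in input replicates 1 and 2 and at 5.02 and 6.11 in IP replicates 1 and 2. FPKM are fragments scaled to transcript length and to the mapped fragments of a library, so levels can be compared between genes. Both IP values were at least 3 times either input value, and the groups did not overlap. The mean went from 1.57 ± 0.08 to 5.57 ± 0.77 FPKM (SD, n = 2), a log2 change of 1.35 (SE 0.11; limma, adjusted p = 0.000107) on the log2(FPKM + 1) scale. The limits deposited beside each value corresponded to about 82 and 91 reads in input and 284 and 287 in IP, if they span 2 SD of a read count. Gjd2 lies on chromosome 2 from 114009601 to 114013619 (mm10, minus strand) with 2 exons, both of them coding in the longest GENCODE transcript. Its last 55 bases, at the 5′ end, overlap the plus-strand noncoding gene A530058N18Rik, and the window printed for Gjd2 lies within that gene's span. A530058N18Rik also rose, from 2.45 and 1.97 FPKM to 6.38 and 6.93, a log2 change of 1.26 (limma, adjusted p = 0.000125). The use of strand in counting is not stated by the labels, and reads in those 55 bases cannot be assigned to either gene.

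Markers of interneurons moved in the same direction as Gjd2. All 11 tested genes listed for Npy and Sst interneurons rose (median log2 change 2.43). The list includes Gad1, Gad2 and Slc32a1, which GABAergic neurons share and which do not mark these classes alone. The summed level of the 11 went from 690 to 717 FPKM in input to 7081 to 7297 in IP. All 7 markers of Pvalb interneurons, a class known for Gjd2 coupling, rose as well (median 1.27), from sums of 421 to 427 to sums of 1591 to 1718. Over all genes tested the median change was 0.03. Gjd2 had a smaller change than 9 of the 11 genes on the Npy and Sst list and a larger one than 2. Npy itself was at 105.4 and 99.2 FPKM in input, against 1240.4 and 1167 in IP. Their part in the change of Gjd2 was not tested.

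**Figure D1:**
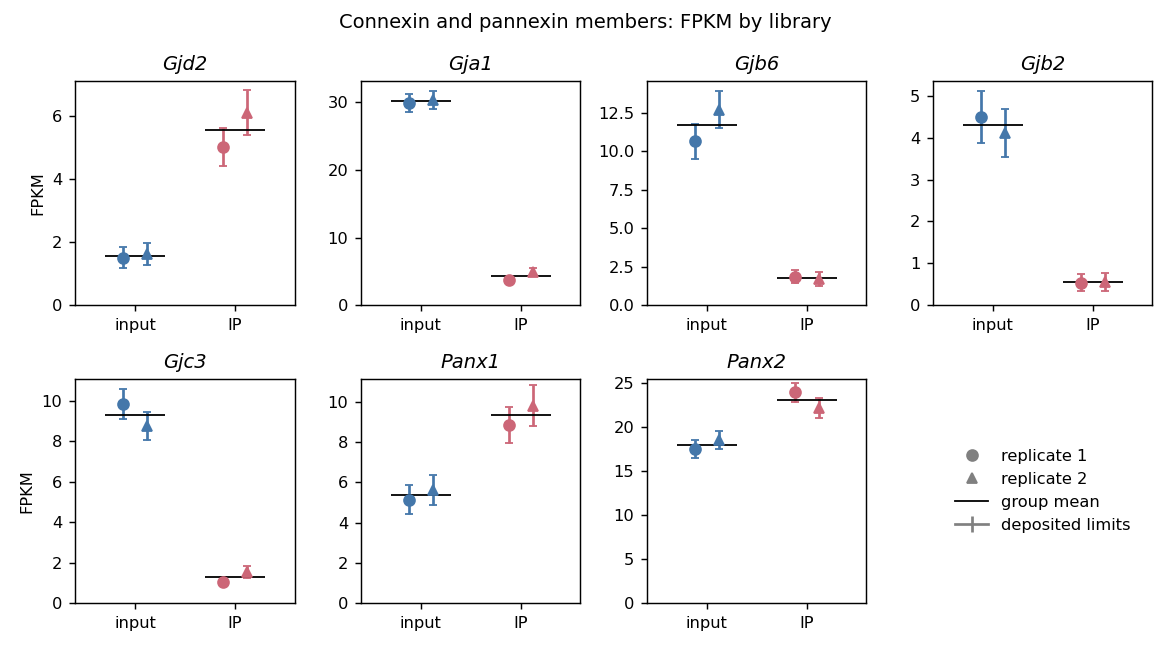
FPKM of the 7 members (y axis, each panel from 0) in input and IP, with circles for replicate 1, triangles for replicate 2, bars for the deposited confidence limits and lines for the group means (n = 2). Gjd2, Panx1 and Panx2 sit higher in IP, and Gja1, Gjb6, Gjb2 and Gjc3 sit lower. Limits do not overlap between the groups in any panel, but the share of all genes with limits apart was not counted. Library values did not overlap for 86.4% of all genes tested.

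Gja1, the astrocyte connexin, was the most abundant member in input and the one that fell most on the log2 scale. It was at 29.9 and 30.3 FPKM in input, against 3.75 and 4.89 in IP. The input pools were nearly equal, and both IP values lay far below them. The mean fell from 30.1 ± 0.33 to 4.32 ± 0.81 FPKM (SD, n = 2), 6.97-fold, with a log2 change of -2.56 (SE 0.11; limma, adjusted p = 2.31e-05). Gja1 lies on chromosome 10 from 56377300 to 56390419 (plus strand), with its whole coding sequence in 1 of 2 exons. The fall sets RNA on tagged ribosomes against total RNA, and it measures neither the number of cells of a type nor the RNA per cell.

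Gjb6, the second astrocyte connexin, fell in the same way. Its values were 10.7 and 12.7 FPKM in input, against 1.86 and 1.70 in IP, 6.56-fold lower, a log2 change of -2.19 (SE 0.10; limma, adjusted p = 2.7e-05). Gjb2 was at 4.49 and 4.11 FPKM in input, against 0.537 and 0.556 in IP. Both IP values were close to each other, and they rested on about 29 and 25 reads. Gjb2 was 7.87-fold lower (log2 change -1.78, SE 0.09; limma, adjusted p = 3.19e-05), the largest ratio among the 7, although its log2 change was smaller than that of Gja1, since the added 1 weighs more on low values. Gjb2 and Gjb6 lie 18598 bases apart on chromosome 14, at 57098602 to 57104702 and 57123301 to 57133611 (both minus strand), each with its coding sequence in 1 exon. Gja3, another connexin, 40571 bases beyond Gjb2 and known from the lens, was at 0.074 and 0.145 FPKM in input, against 0.017 and 0.020 in IP, too low to test. In input, the neighbours on chromosome 14 thus ranged from under 0.2 FPKM for Gja3 to a mean of 11.7 for Gjb6.

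The astrocyte connexins kept similar proportions to each other while their level fell. Gjb6 stood at 35.7% and 41.9% of Gja1 in input and at 49.8% and 34.8% in IP, so the IP values lay on both sides of the input values. Gjb2 stood at 15.0% and 13.6% of Gja1 in input and 14.3% and 11.4% in IP, with overlapping groups. Relative to the summed FPKM of 13 astrocyte markers, Gja1 was lower in IP. It equalled 5.34% and 4.96% of that sum in input, and 2.26% and 2.33% in IP. Gjb6 went from 1.91% and 2.08% of that sum to 1.12% and 0.81%. Aldoc weighed most in the sum, at means of 287 FPKM in input and 88.8 in IP, with Gfap next in IP at 41.5. The ratio to the sum therefore need not hold for single markers. Gene by gene, the level left in IP ran from 0% to 92.3% of input over the 13 markers. It was 14.3% for Gja1 and 15.2% for Gjb6. These ratios are descriptions and were not tested.

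Of those 13 astrocyte markers 12 fell and Gfap, at 38.2 and 51.9 FPKM in input, against 33.0 and 50.1 in IP, did not pass (list median -1.72). Their sum was 559 to 612 FPKM in input, against 166 to 210 in IP, and 1 marker, Slc7a10, had 0 FPKM in each IP library. Only Slc1a3 and Slc7a10 had a lower change than Gja1 among the 13, and these names were picked after their values were seen. For Gjb2, meningeal markers bear on the same point, and all 6 tested of 7 fell (median -2.24), from sums of 51.0 to 58.7 FPKM to sums of 3.66 to 4.92. Their part in the falls of Gja1, Gjb6 and Gjb2 was not tested.

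Gjc3, the myelin connexin, was at 9.87 and 8.77 FPKM in input, against 1.05 and 1.53 in IP. The IP libraries differed by more, in proportion, than the input libraries, and both were far below them. Gjc3 was 7.23-fold lower (log2 change -2.18, SE 0.12; limma, adjusted p = 4.07e-05). It lies on chromosome 5 from 137953809 to 137962959 (minus strand), with 3 exons of which 2 are coding. Gjb1, another connexin of oligodendrocytes, fell as well. It was at 4.65 and 3.20 FPKM in input, against 0.918 and 0.760 in IP, 4.68-fold lower (limma, adjusted p = 0.000355).

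All 10 oligodendrocyte markers and all 6 precursor markers fell, with medians of -2.02 and -1.94. The sums were 506 to 548 FPKM in input against 115 to 130 in IP for oligodendrocytes, and 66.5 to 71.1 against 10.0 to 13.3 for precursors. Set against the oligodendrocyte sum, Gjc3 went from 1.80% and 1.73% to 0.92% and 1.18%, while Gjb1 was at 0.85% and 0.63% in input and 0.80% and 0.59% in IP. Of the 10 oligodendrocyte markers 2 had a lower change than Gjc3 and 8 a higher one. Their part in the fall of Gjc3 was not tested.

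**Figure D2:**
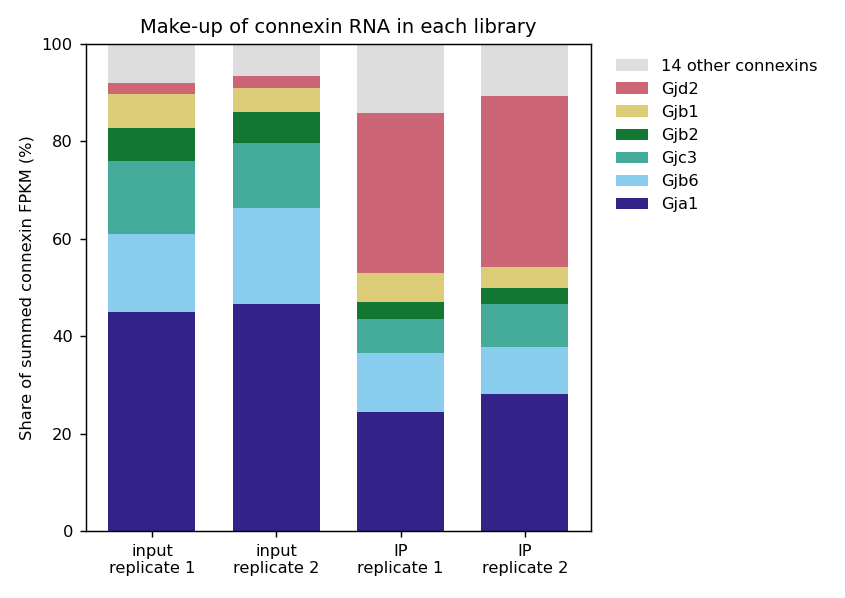
Share of each connexin in the summed FPKM of all 20 connexin genes (y axis, percent), one bar per library. Gja1 holds 45.0% and 46.7% of the input bars and 24.5% and 28.1% of the IP bars, and Gjd2 goes from 2.27% and 2.50% to 32.8% and 35.1%.

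Summed over all 20 connexin genes of the files, the level fell from 65.7 ± 0.97 to 16.3 ± 1.47 FPKM (SD, n = 2), and the make-up changed with it, as the bars of connexin shares show. In input Gja1 accounted for 45.9% ± 1.18 of the sum and Gjd2 for 2.38% ± 0.16. In IP Gjd2 held the largest share, 34.0% ± 1.62, ahead of Gja1 at 26.3% ± 2.56. The ratio of Gja1 to Gjd2 was 19.8 and 18.7 in input and 0.75 and 0.80 in IP. The connexins of glia made up most of the rest in IP, with Gjb6 at 12.2% and 9.78% in its 2 libraries, Gjc3 at 7.84% ± 1.34 and Gjb2 at 3.36% ± 0.22. Background binding of untagged RNA was not measured.

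The order of the 7 levels therefore differed between the groups. In input it was Gja1, Panx2, Gjb6, Gjc3, Panx1, Gjb2 and Gjd2, and in IP it was Panx2, Panx1, Gjd2, Gja1, Gjb6, Gjc3 and Gjb2. Neighbours in each order had library values that did not overlap. The deposited limits did overlap between Gjb6 and Gjc3 in both groups, between Panx1 and Gjb2 in input, and between Gjd2 and Gja1 in IP, so those neighbours are not told apart beyond counting error.

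Panx1, an ATP-releasing channel of many cell types, was at 5.14 and 5.63 FPKM in input, against 8.85 and 9.82 in IP. The groups did not overlap, and the limits of the libraries did not either. Its mean was 5.39 ± 0.35 FPKM in input and 9.34 ± 0.68 in IP (SD, n = 2). The log2 change was 0.69 with an SE of 0.08 (limma, adjusted p = 0.000557). Panx1 lies on chromosome 9 from 15005785 to 15045478 (minus strand) with 5 exons, all coding.

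Panx2, the pannexin known as enriched in the central nervous system, was the most abundant member in IP. It was at 17.5 and 18.5 FPKM in input, against 24.0 and 22.2 in IP, higher in both IP libraries by a small margin. The log2 change was 0.34 (SE 0.07; limma, adjusted p = 0.00411). This call depended on scaling: with each library rescaled to the same FPKM sum the change was 0.02 (adjusted p = 0.825, against 0.0019 to 0.0437 in the 16 other alternatives). That rescaling moved the median change of all genes from 0.03 to -0.29, and relative to the median Panx2 changed by 0.32 before it and by 0.31 after it. With quantile normalization the change of Panx2 was smaller, at 0.19 (limma, adjusted p = 0.0401), or 0.15 relative to the median. Panx1 stayed higher after rescaling (0.43; limma, adjusted p = 0.00678). Panx2 lies on chromosome 15 from 89059726 to 89070907 (plus strand) with 3 exons, all coding. The ratio of Panx2 to Panx1 was 3.40 and 3.29 in input and 2.71 and 2.26 in IP, with no overlap and no test.

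**Figure D3:**
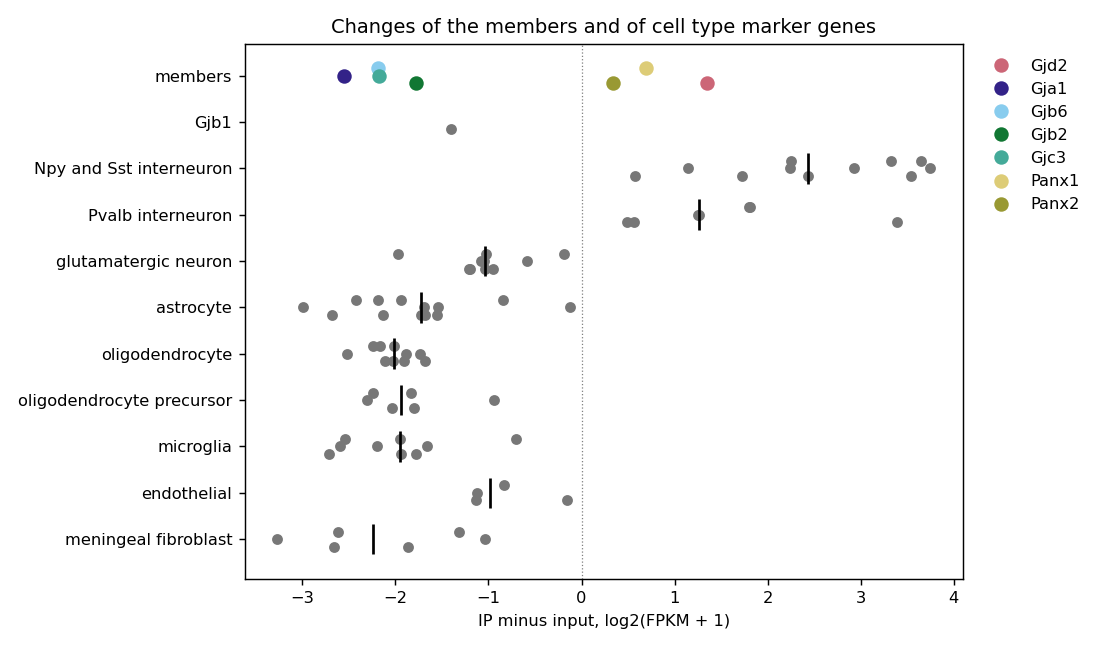
Change from input to IP on the log2(FPKM + 1) scale (x axis) for the 7 members (coloured), the oligodendrocyte connexin Gjb1, and the tested markers of 9 cell types (grey points, each a gene, with the list median as a black line). Gjd2 at 1.35 lies on the side of the interneuron markers, and Gja1, Gjb6, Gjb2 and Gjc3, from -2.56 to -1.78, lie among the glial and meningeal markers. The glutamatergic marker Neurod1, at -1.97, lies in that range too, below the median of its list (-1.04).

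Of the other 16 connexin and pannexin genes in the files, 2 were tested, Gjb1 among them, and both fell, while 14 were below the filter. Gjc1, a connexin of vascular muscle and of some neurons, was at 1.10 and 0.508 FPKM in input, against 0.437 and 0.304 in IP. Gja4, known from vessels, was at 0.533 and 0.576 FPKM in input, against 0.441 and 0.265 in IP. Gjd3 was at 0.222 and 0.358 FPKM in input, against 0.326 and 0.156 in IP. The other 11, among them Gja3, Gja5, Gja6 and Panx3, stayed under 0.2 FPKM in every library, and 4 of the 14, Panx3 among them, were listed at 0 in each IP library.

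Connexins bind scaffold and trafficking proteins, and 8 of their partners were listed. Of these, 4 fell, 2 rose and 2 did not pass (median change -0.18), set against 33.9% lower and 37.0% higher among all genes tested. Tjp1, a scaffold protein of tight and gap junctions and a known partner of Cx36 as well as of Cx43, fell by 1.11 on the log2 scale. Tjp1 was at 10.4 and 10.9 FPKM in input, against 4.53 and 4.26 in IP, the opposite direction to Gjd2. Dbn1, the actin-binding protein drebrin, and Src, a kinase that acts on Cx43, fell by 0.58 and 0.32. The rises were small and depended on the scaling. Erp29, a chaperone, changed by 0.27 but by -0.06 after rescaling, and Nedd4, a ubiquitin ligase, by 0.13 but by -0.21. Relative to the median of all genes, Erp29 and Nedd4 changed by 0.25 and 0.10 before rescaling and by 0.23 and 0.08 after it. With quantile normalization those relative values were -0.10 and -0.29. The call of Nedd4 was lost with the replicate block (limma, adjusted p = 0.0607). Nedd4 (limma, adjusted p = 0.0496) was also not past the threshold without any 1 of the 4 libraries, which left 1 partner higher. Cnst changed by 0.06 and Csnk1d by -0.04, neither past the threshold.

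ATP released through pannexins acts on purinergic receptors and is broken down to adenosine outside the cell. Of 14 listed genes of this pathway 13 were tested, of which 5 rose, 7 fell and 1, Nt5e (-0.17), did not pass (median change -0.58). Among all genes tested 37.0% were higher and 33.9% lower. The falls included the microglial receptors P2ry12 and P2ry13, at -1.95 and -0.87, the ATP-gated channel P2rx7 at -1.01 and the ectonucleotidase Entpd2 at -1.09. All 9 microglial markers, P2ry12 among them, fell too (median -1.95), from sums of 53.9 to 59.8 FPKM to sums of 9.24 to 9.52. Adora1, an adenosine receptor and the most abundant of the listed receptors in input, was at 31.0 and 31.1 FPKM in input, against 23.9 and 17.4 in IP. It changed by -0.58 (limma, adjusted p = 0.0086). Leaving out input replicate 1 or 2 ended this call (adjusted p = 0.0813 and 0.0833), and the change came to -0.80 when IP replicate 1 was left out and -0.37 when IP replicate 2 was. The rises were P2rx4, an ATP-gated channel (0.50), the adenosine transporter Slc29a1 (0.48), the receptor Adora2a (0.43), the ectonucleotidase Entpd3 (0.34) and the adenosine kinase Adk (0.18). Adora2a changed by 0.65 without input replicate 1, and was not past the threshold when input replicate 2 or IP replicate 1 was left out (0.21 and 0.34; limma, adjusted p = 0.148 and 0.134). Its call was lost in 8 of 17 alternatives in all. Entpd3 was not past the threshold without input replicate 2 or IP replicate 2 (adjusted p = 0.0993 and 0.0774), nor was Adk without input replicate 1, IP replicate 1 or IP replicate 2 (adjusted p = 0.162, 0.109 and 0.0765). After rescaling P2rx4 alone of the 5 passed (0.27; limma, adjusted p = 0.0355), and Adk was at -0.15. Relative to the median of all genes, Adk changed by 0.15 before rescaling and by 0.14 after it, and by -0.08 with quantile normalization.

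The genes whose 4 library values ran most nearly parallel to each member were found by Euclidean distance of the centred log2 values, over 4 libraries and with predicted genes left out. For Gjd2 these were Isca2, Ptprm and Coprs, at distances of 0.05, 0.05 and 0.06. For Gja1 they included C1qc and Avp (0.12 and 0.13). They were, for Gjb2, Cfp, Zfp36l2 and Ryr3 (0.03 to 0.06) and for Gjb6 Epas1, Slc13a4 and Crym (0.10 to 0.12). For Gjc3 they were Opalin, Mag and Ctss (0.05 to 0.13), for Panx1 Ppfia4, Commd6 and Tmem199 (0.02 to 0.04) and for Panx2 Dnm1, Cyb561 and Thy1 (0.02). With 4 libraries such likeness mostly reflects a similar size of change.

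**Figure D4:**
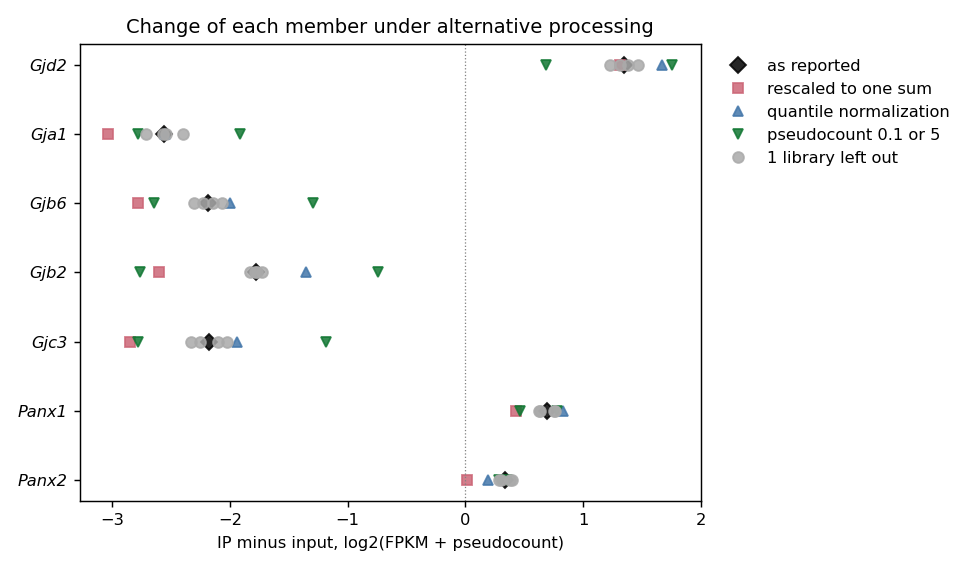
Change of each member from input to IP (x axis, log2 scale) as reported (diamond) and under selected alternatives: rescaling, quantile normalization, other pseudocounts and 1 library left out. Every point for Gja1, Gjb6, Gjb2 and Gjc3 is below 0 and every point for Gjd2 and Panx1 above 0, while Panx2 comes to 0.02 after rescaling.

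Over the alternatives the change of Gjd2 ran from 0.68 to 1.76, that of Gja1 from -3.03 to -1.92 and that of Panx1 from 0.43 to 0.91, and each of these genes passed the threshold in all 17. Gjb6, Gjb2 and Gjc3 also passed in every alternative that kept them, 17, 16 and 17, with changes from -2.79 to -1.30, from -2.77 to -0.75 and from -2.85 to -1.19.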

How the data were processed

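RNA-seq libraries were prepared with TruSeq RNA reagents, per the labels' protocols, from 200 ng of RNA and read as 100 bp single ends per the design text. The submitters' processing notes name FastQC, TopHat, Cufflinks and Cuffdiff and the build mm10, with no versions. The deposited values are gene-level FPKM that the authors made with Cufflinks, with confidence limits per the file headers, and no scaling between libraries is recorded. Groups and replicate numbers came from the titles. The title of IP replicate 2 was followed where its source description gives replicate 1.

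Entries that failed in any library (8) and 1274 small RNA entries were left out, and the entry with the highest mean was kept per symbol. Genes reaching FPKM 1 in 2 or more libraries (12417) were tested as log2(FPKM + 1) in limma 3.58.1 (R 4.3.3), lmFit and eBayes with trend, two-sided, Benjamini-Hochberg adjusted over all genes, threshold 0.05. Fold values are ratios of mean FPKM. No count test was run on FPKM. Each p-value rests on the spread between 2 libraries a group, with variances moderated over all genes by eBayes. The main fit took the libraries as independent, and pairing by replicate number entered only in the alternative with a replicate block. The FPKM sum was 334759 and 335119 in input and 423985 and 419349 in IP. The files give no read totals. Their limits correspond to 13184676 and 13669231 reads in input and 16012763 and 13536687 in IP, if they span 2 SD of a count, and 52.9% to 54.1% of values under 50 reads came out whole within 0.02. No value at FPKM of at least 5 was identical between replicates. Each IP had a corresponding input by the design text, and replicate numbers therefore pair the libraries, and deviations of the replicates numbered 1 correlated at 0.161.

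The test was checked on simulated data. Members and lists were chosen with earlier results of these data known. Named were all members, other connexin and pannexin genes, up to 4 called genes of largest change per further list, Npy and the 3 nearest genes per member, and any other gene was singled out after its values were seen. Marker lists are reported as lists. Some genes that the rule names are not reported here. Markers of endothelial cells (3 of 4 tested fell), ependyma and choroid plexus (3 of 4), glutamatergic neurons (8 of 10) and erythrocytes (3 of 3) were also listed, and none of them rose. Of the erythrocyte list Hbb-b2 had no entry under that symbol. Alternatives were other pseudocounts, filters, scalings, fits, a replicate block, a correction for transcript length and each library left out.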

Additional observations from a re-analysis of the deposited data

How the results depend on the processing

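The 7 members kept their direction under all 17 alternatives, or 16 for Gjb2, which the filter at FPKM of 5 removed, and all calls held but that of Panx2 after rescaling (0.0174, adjusted p = 0.825, with 0.0019 to 0.0437 in the others). With the replicate block 3 members were higher and 4 lower as before, and of the listed genes only Nedd4 lost a call, while Ttr and Neurod6 gained one. Rescaling to one FPKM sum gave 2228 higher and 6684 lower genes among all tested, against 4597 and 4205, with a median change of -0.29. It left 0 connexin partners higher and 7 lower, and 1 gene of the ATP list higher. It turned Cnst to -0.26, Nedd4 to -0.21, Erp29 to -0.0609 and Adk to -0.15. Relative to the median of all genes after rescaling, these were 0.03, 0.08, 0.23 and 0.14. Quantile normalization left 0 partners higher and 4 genes of the ATP list lower, and gave -0.24 for Nedd4, -0.0492 for Erp29, 0.29 for Nt5e and -0.0291 for Adk. The filter at FPKM of 5, which tests fewer genes, left 0 other connexins, 3 higher and 1 lower genes of the ATP list with a median of 0.30, and 2437 lower genes in all. Partners higher numbered 1 with no filter, with the replicate block, without trend, with the robust option, with small RNA genes kept and with each library left out (1 to 1). The ATP list had 3 higher without trend, 3 after correction for transcript length, which put Adk at -0.0636, and 3 to 4 with a library left out. For the members other than Panx2 no call was lost. Apart from the filter's own effect the cause of these shifts was not tested. At 25 to 102 reads, Gjb2, Gjb6 and Gjc3 in IP and Gjd2 in input are the least precise values.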
